A study of Mus musculus with 10 samples.

Results

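Potassium channel genes were taken as the protein-coding autosomal genes of the mm10 mouse annotation whose symbols begin with *Kcn*, which gave 92 of 20807 genes. The list holds the pore-forming subunits of the voltage-gated, calcium- and sodium-activated, inwardly rectifying and tandem-pore channels, and the accessory subunits that carry the same prefix. At each gene, the peaks of accessible chromatin and of H3K4me3 were described at the promoter, within 1 kb of any transcription start site (TSS) of the gene, and elsewhere in the gene body and the 20 kb on either side of it. Sites counted as away from promoters lay more than 1 kb from the TSS of every annotated gene.

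Potassium channels set the resting membrane potential and end action potentials. In neural stem cells and astrocytes, leak and inwardly rectifying channels hold the membrane near the potassium equilibrium potential and take up extracellular potassium, whereas many voltage-gated channels are known best from neurons. Pore-forming subunits assemble as tetramers, or as dimers in the tandem-pore family, and accessory subunits alter their gating and trafficking.

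The data were from neural stem and progenitor cells (NSPCs) of C57BL/6 mice at postnatal day 5, cultured in Neurobasal A with B27 and 20 ng/ml of FGF2 in every state. Activated cells also received 20 ng/ml of EGF and divide in this medium. Quiescent cells were kept for 4 days, by the labels, without EGF and with BMP4 at 25 ng/ml, a signal under which these cells leave the cell cycle, and the study's methods give a shorter time for the ATAC-seq cells. Reactivated cells were returned from BMP4 to the EGF medium for 9 to 12 days. ATAC-seq, in which the Tn5 transposase cuts open chromatin, had 2 biologically independent libraries per state, and ChIP-seq for H3K4me3, a histone mark of active or poised promoters, had 1 library each for quiescent and activated cells. These were primary cultures that mix stem cells with their progeny, so that a site open in fewer cells and a site less open in each cell cannot be told apart.

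The ATAC-seq lists held 46071 to 59108 autosomal peaks in the quiescent and activated libraries and 103186 and 103783 in the reactivated libraries. The H3K4me3 lists held 16584 in the quiescent and 15417 in the activated library. The lowest pileup of reads that was called as an ATAC-seq peak was 25 in quiescent library 2 and 16 or 17 in the other 5 libraries, and openness below these pileups was not detectable. All 7 NSPC markers examined (*Sox2*, *Nes*, *Vim*, *Pax6*, *Fabp7*, *Hes5* and *Slc1a3*) had promoter H3K4me3 in both states, and 6 had a promoter ATAC-seq peak in all 6 libraries. Of the markers of other cell types, H3K4me3 was called in both states at 4 of 5 neuronal, 2 of 5 oligodendrocyte, 1 of 5 endothelial and 0 of 5 microglial markers. A promoter ATAC-seq peak in all 6 libraries was found at 2 neuronal markers and at no marker of the other 3 lists. *P2ry12* (microglia), *Kdr* (endothelium) and *Cnp* (oligodendrocytes) had one in 5 of 6, all but quiescent library 1, with folds of 2.06 to 6.23 in the quiescent and activated libraries and 3.57 to 9.61 in the reactivated libraries. By library, 2 and 2 of the 5 neuronal markers had a promoter peak in quiescent and 4 and 3 in activated NSPCs. All 5 had it in each reactivated library. *Gad2* had a peak in both activated and both reactivated libraries and in neither quiescent library, and *Slc17a7* in the reactivated libraries alone. Each of the other 3 lists had 0 to 2 markers with a peak per library, and the NSPC markers 6 or 7. The part of other cell types in the results was not tested.

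Most potassium channel genes had an open promoter in some library, and fewer in every library. A promoter peak was called in at least 1 of the 6 ATAC-seq libraries for 76 of the 92 genes (82.6%, exact binomial 95% interval 73.3 to 89.7%) and in all 6 for 40 (43.5%, 33.2 to 54.2%), beside 54.5% of all protein-coding autosomal genes with it in all 6. At a −log10 q of at least 10, 20 of the 92 had it in all 6, and the share of all genes was not counted at this cutoff. The 16 genes with no promoter peak (17.4%, beside 30% of all genes) included *Kcne1* to *Kcne4*, which encode single-pass accessory subunits, and the tandem-pore genes *Kcnk7*, *Kcnk9*, *Kcnk15*, *Kcnk16* and *Kcnk18*. Such intervals cover counting error alone. The peak of a gene could lie at any of its TSSs, and at 25 genes the strongest promoter peaks of the libraries did not all overlap.

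Library by library, 51 and 46 of the 92 promoters had a peak in quiescent NSPCs, 56 and 49 in activated NSPCs, and 72 and 70 in reactivated NSPCs. The quiescent and activated counts overlapped, and both reactivated counts were above them. At the 5 neuronal markers too, the reactivated counts of 5 and 5 were the highest, and so were those over all genes. In percent, the channel genes went from 50% to 60.9% in quiescent and activated libraries, where all genes went from 58.6% to 60.3%, and reached 78.3% and 76.1% in the reactivated libraries, where all genes had 67.9% and 67.7%. The authors had reduced the reads of these samples before calling peaks, yet the reactivated lists were the longest. When each list was limited to its 46071 strongest peaks, the counts were 43 and 38 in quiescent libraries, 46 and 49 in activated libraries and 52 in each reactivated library. The quiescent counts were 46.7% and 41.3%, beside 57.1% and 57.7% of all genes. The activated counts were 50% and 53.3%, beside 58.4% and 58.6%. The reactivated share of channel genes was then 56.5% in both libraries, below the 60.2% of all genes, so that its place above all genes was lost. At a −log10 q of at least 10 the counts were 29 and 33 in quiescent libraries, 33 and 29 in activated libraries and 62 in each reactivated library. The share of all genes was not counted at this cutoff, and −log10 q grows with the depth of a library. Whether these counts are particular to channel genes was therefore not tested.

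Where a promoter peak was present, its median strength was lower than over all genes, which is given as a description. Fold enrichment divides the pileup at the summit by the local background of the same library, and a percentile ranks a peak within its own list. The median promoter fold of the channel genes was 4.59 and 4.50 in the quiescent libraries, 5.44 and 5.51 in the activated libraries, and 7.96 and 7.79 in the reactivated libraries. Over all genes with a peak these medians were 7.49 and 7.23, 8.89 and 7.65, and 10.8 and 11.4. The median percentile of the channel promoters ranged from 58.0 to 76.6 across the 6 libraries and that of all promoters from 82.3 to 88.8, so that the channel promoters were lower in each library.

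**Figure D1:**
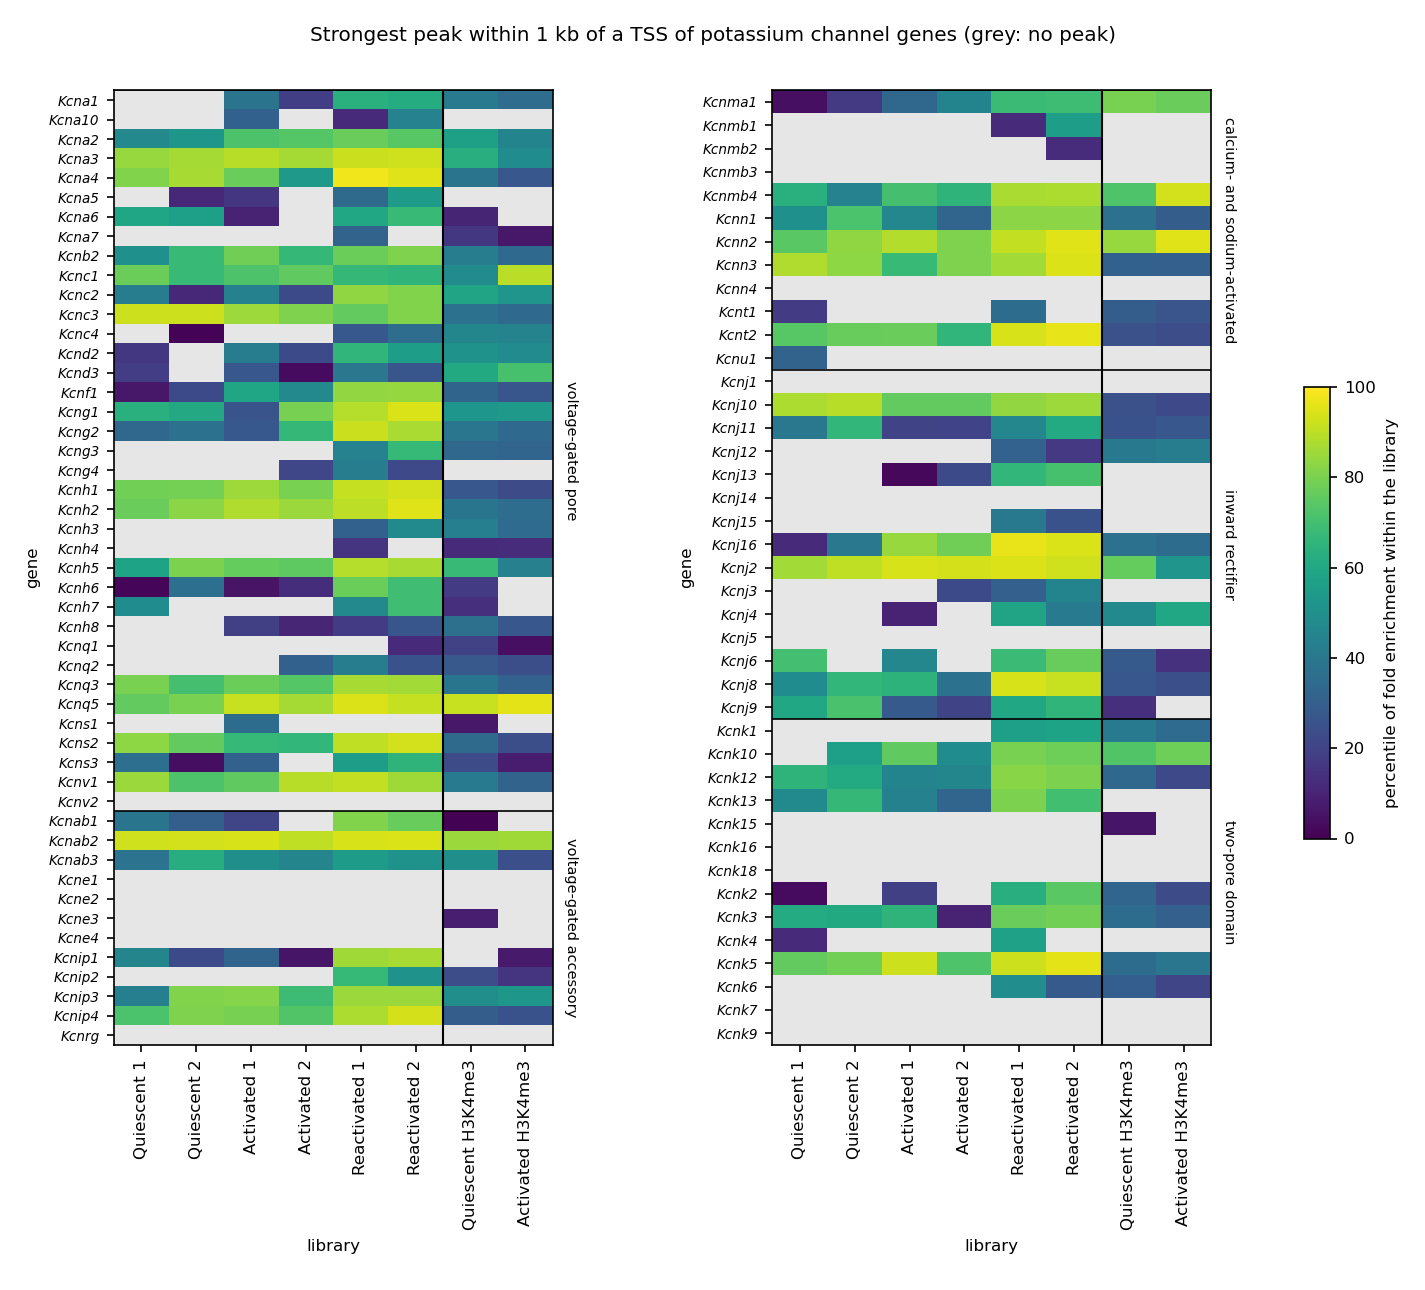
Strongest peak within 1 kb of a TSS for potassium channel genes (rows, grouped by family, with 2 of the 92 not drawn) in each library (columns), coloured by the percentile of its fold enrichment within the list of that library, with grey for no peak. Over all 92 genes, promoter peaks were called at 51 and 46 in the quiescent, 56 and 49 in the activated and 72 and 70 in the reactivated libraries, and the 16 genes without an ATAC-seq peak in any library are grey in the first 6 columns.

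By family, open promoters were counted as follows, with no test between families. Among the 39 pore and modifier subunits of voltage-gated channels, 19 had a promoter peak in all 6 libraries and 1, *Kcnv2*, in none. Among 12 accessory subunits, 5 had it in all 6 and 5 in none. The calcium- and sodium-activated genes had 6 of 12 open in all 6 libraries, the inward rectifiers 6 of 15, and the tandem-pore genes 4 of 14.

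The 5 strongest promoters, by mean percentile over the 6 libraries, were those of *Kcnab2*, *Kcnj2*, *Kcna3*, *Kcnq5* and *Kcnh2*. At *Kcnab2*, which encodes a β subunit of Kv1 channels, the fold was 9.85 and 9.67 in quiescent libraries, 12.0 and 9.40 in activated libraries and 13.3 and 14.1 in reactivated libraries, and the TSS of *Nphp4* lies within 1 kb. *Kcnj2*, the gene of the classical inward rectifier Kir2.1, had 7.89 and 8.48, then 12.0 and 10.4, then 13.9 and 13.3. *Kcnq5*, the gene of a channel of the M-current, had 6.15 and 6.00, then 10.9 and 8.47, then 13.8 and 12.4. At each of these 3 genes the reactivated folds were the highest pair as deposited, and the fold at sites open in all 4 other libraries was also higher in the reactivated libraries, with medians of 10.4 and 10.7 beside 5.50 to 7.29. *Kcnj10*, the gene of the glial inward rectifier Kir4.1, had 8.23 and 8.14 in quiescent libraries, 7.21 and 6.69 in activated libraries and 9.56 and 10.1 in reactivated libraries.

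Peaks specific to a state were rare at promoters. A promoter was called specific when it had a peak in both libraries of one state and in neither of the other. No channel promoter was specific to quiescent NSPCs (0 of 92, which allows up to 3.93%, beside 0.779% of all genes). The promoters of *Kcna1*, *Kcnh8* and *Kcnj13* were specific to activated NSPCs (3.26%, 0.678 to 9.23%, beside 0.947% of all genes). These calls depended on the settings: at a −log10 q of at least 10 none of the 3 was still called, with lists of equal length *Kcna1* alone was, and with the 5′ end of the gene alone *Kcnj13* was not. In all, 2, 5 and 2 channel promoters were specific to activated NSPCs and 3, 2 and 0 to quiescent NSPCs under these 3 settings. Without quiescent replicate 1, activated replicate 1 or activated replicate 2 the count specific to activated NSPCs was 5, 6 and 7, and without quiescent replicate 1, quiescent replicate 2 or activated replicate 1 that specific to quiescent NSPCs was 1, 4 and 3. The state without a replicate is then judged on its other library alone, a looser rule under which counts can rise by construction. *Kcna1*, whose product Kv1.1 limits repetitive firing, had a fold of 3.98 and 3.14 in the activated libraries and 6.09 and 5.87 in the reactivated libraries. *Kcnh8*, a gene of the ether-à-go-go-like group, had 3.18 and 2.85, then 3.23 and 3.63. *Kcnj13*, the gene of the inward rectifier Kir7.1, had 2.39 and 3.28, then 6.40 and 7.05, at a site 5.47 kb into the gene (chr1:87389108-87389413) beside another annotated start. None of the 3 had a peak in either quiescent library. *Kcna1* and *Kcnh8* had H3K4me3 in both states, with a fold of 21.6 in quiescent and 18.7 in activated NSPCs at *Kcna1* and 17.8 and 11.6 at *Kcnh8*, whereas *Kcnj13* had it in neither.

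The sequences at *Kcnh8* and *Kcnj13* are shown because these promoters had an accessible site in activated and not in quiescent NSPCs, one with H3K4me3 and the other without. That of *Kcnh8* runs from 250 bases before to 50 after the start in RefSeq (GRCm38.p6), at chr17:52602459-52602758 on the plus strand, and the activated-specific peak overlaps it. That of *Kcnj13* is the 300 bases around the summit of the peak, at chr1:87389188-87389487 on the plus strand of GRCm38, since the peak lies away from the 5′ end of the gene. Both are written 5′ to 3′. Capitals mark matches on either strand to the NFI core TTGGC, the E-box CAGCTG, the AP-1 site TGANTCA and the GC box GGGCGG. The GC content was 66% at *Kcnh8* and 47.7% at *Kcnj13*.
Kcnh8 promoter: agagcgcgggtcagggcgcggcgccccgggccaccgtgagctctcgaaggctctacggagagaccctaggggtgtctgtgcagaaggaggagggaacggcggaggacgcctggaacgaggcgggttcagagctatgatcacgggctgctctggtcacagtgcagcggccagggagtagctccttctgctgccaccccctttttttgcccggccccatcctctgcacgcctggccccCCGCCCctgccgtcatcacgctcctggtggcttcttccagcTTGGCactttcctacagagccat
Kcnj13 activated-specific site: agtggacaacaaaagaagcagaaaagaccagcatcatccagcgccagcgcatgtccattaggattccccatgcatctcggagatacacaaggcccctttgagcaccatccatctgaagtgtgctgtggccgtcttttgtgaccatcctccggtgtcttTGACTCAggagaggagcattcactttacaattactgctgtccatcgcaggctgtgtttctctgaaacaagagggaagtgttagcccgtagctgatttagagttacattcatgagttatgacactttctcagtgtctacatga

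RefSeq promoters were found for 68 of the 92 genes, 93 sequences in all. A GC box was in 47.3% of them, beside 36.0% of 31396 autosomal promoters of the same length, and the E-box in 24.7% beside 16.3%. The NFI core was in 41.9% beside 46.7%, and the AP-1 site in 4.30% beside 7.84%. The median GC content was 58% beside 53%. By gene, it was 64.3% for the 28 genes in the table that were open in all 6 libraries, 62.3% for the 28 open in 1 to 5, and 57.3% for the 12 open in none.

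Of the 40 channel promoters with a peak in all 4 quiescent and activated libraries, 2 were stronger in activated NSPCs (5%, 0.611 to 16.9%, beside 0.635% of all such promoters) and none in quiescent NSPCs (up to 8.81%, beside 0.626%). Stronger meant that the nearest libraries of the states differed by at least 1.5 times, after each fold was divided by the library's median at sites open in all 4. *Kcnj16*, the gene of Kir5.1, which assembles with Kir4.1, had a fold of 2.76 and 3.13 in quiescent libraries, 8.89 and 6.99 in activated libraries and 15.2 and 14.0 in reactivated libraries. The nearest scaled values differed 2.03 times, although the strongest peaks did not all overlap one another. Its quiescent and activated values did not overlap, as the rule required. The count of 2 was 0 at a −log10 q of at least 10 and with lists of equal length, 5 with fold as deposited and 1 with a ratio of at least 2. Without activated replicate 1 the count stronger in activated NSPCs was 5, and without quiescent replicate 1 or activated replicate 2 the count stronger in quiescent NSPCs was 3 (1 without activated replicate 1).

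A further 8 channel promoters had a peak in both reactivated libraries and in no other (8.70%, 3.83 to 16.4%, beside 3.57% of all genes). *Kcnk1*, the gene of the tandem-pore channel TWIK-1, had a fold of 5.35 and 5.50. *Kcng3*, a modifier subunit of Kv2 channels, had 4.51 and 6.48, and *Kcnip2*, a calcium-binding partner of Kv4 channels, 6.45 and 4.95. At each of these 3 genes the strongest promoter peaks of the 2 libraries did not overlap, so the 2 folds are from different peaks. The others were *Kcnh3*, *Kcnj12*, *Kcnj15*, *Kcnk6* and *Kcnmb1*, with folds of 3.04 to 5.33. All but *Kcnj15* and *Kcnmb1* carried H3K4me3 in both quiescent and activated NSPCs. When each ATAC-seq list was limited to its 46071 strongest peaks, none of the 8 was still in this class and 2 other genes were. At a −log10 q of at least 10 the class held 18 genes, among them 3 of the 8 (*Kcng3*, *Kcnip2* and *Kcnk1*). The share of all genes in this class was not counted under these settings.

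H3K4me3 was called in both states at 58 of the 92 promoters (63.0%, 52.3 to 72.9%, beside 61% of all genes) and in neither at 25 (27.2%, 18.4 to 37.4%). Of all genes, 61% had the mark in both states, 1.36% in quiescent alone, 0.12% in activated alone and the rest in neither. The share in both states was near that of all genes. An ATAC-seq promoter peak in both quiescent and activated NSPCs, each in at least 1 library, was at 49 (53.3%, 42.6 to 63.7%, beside 59.1%). All of the 58 marked in both states had an ATAC-seq peak in at least 1 library (beside 99.2% of all genes so marked) and 36 had it in all 6 (62.1%, 48.4 to 74.5%, beside 86.9%). By family, 31 of 39 voltage-gated pore genes had the mark in both states, as did 5 of 12 accessory, 7 of 12 calcium- and sodium-activated, 8 of 15 inward rectifier and 7 of 14 tandem-pore genes. *Kcnk13*, the gene of the tandem-pore channel THIK-1, was the only gene open in all 6 libraries that had no H3K4me3 peak in either state, and its ATAC-seq fold was 4.05 and 4.47, 4.24 and 3.69, and 8.73 and 6.80.

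The mark had a lower median fold and width at channel genes than at genes at large, which was not tested. The median fold over the input was 17.2 in the quiescent and 16.2 in the activated library, where marked promoters of all genes had 38.0 and 35.8. The median width was 1502.5 bp and 1405 bp, beside 2158 bp and 2050 bp. Within the family the fold varied widely: among the 58 genes marked in both states it ran from 4.19 to 52.9 in quiescent NSPCs. *Kcnq5* had 52.9 in quiescent and 54.3 in activated NSPCs, *Kcnma1*, the gene of the large-conductance BK channel, 45.1 and 41.6, and *Kcnd3*, the gene of the A-type channel Kv4.3, 35.3 and 38.8. At *Kcnd3* the mark was broad, at 4279 bp and 4493 bp, while its promoter ATAC-seq peaks were weak. The strongest had a fold of 2.98 in quiescent library 1, 3.50 and 2.45 in activated and 4.24 and 3.65 in reactivated libraries. None was called in quiescent library 2, and the strongest peaks of the other libraries did not all overlap.

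The H3K4me3 call differed between the states at 9 genes. With 1 library per state there was no replicate check and no test. In quiescent NSPCs alone the mark was called at 8 promoters (8.70%, 3.83 to 16.4%, beside 1.36% of all genes) and in activated NSPCs alone at *Kcnip1*, which encodes a calcium-binding partner of Kv4 channels (1.09%, beside 0.12%). The 8 were the voltage-gated pore genes *Kcna6*, *Kcnh6*, *Kcnh7* and *Kcns1*, the accessory genes *Kcnab1* and *Kcne3*, the G-protein-gated inward rectifier *Kcnj9* and the tandem-pore gene *Kcnk15*. These peaks were small, with folds of 2.90 to 5.27 and widths of 228 bp to 652 bp, and at *Kcnip1* the fold was 4.15 and the width 317 bp. The quiescent list was the longer, and when both lists held the same number of peaks 5 of the 8 remained (*Kcna6*, *Kcne3*, *Kcnh6*, *Kcnh7* and *Kcnj9*). At a −log10 q of at least 10, *Kcnh6* was the only one of the 8 left.

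Genes that work with these channels were described in the same way, in lists chosen by function. Of 13 partners without the *Kcn* prefix (such as the Kv4 partners *Dpp6* and *Dpp10* and the related HCN channels), 4 had a promoter peak in all 6 libraries and 9 had H3K4me3 in both states. Over all genes these shares were 54.5% and 61%. The promoter of *Hcn2*, a pacemaker channel gene, was specific to quiescent NSPCs, with a fold of 2.95 and 2.96 and, in the reactivated libraries, 4.74 and 5.94. That of *Amigo1*, which encodes a partner of Kv2 channels, was specific to activated NSPCs, with 3.05 and 3.27 and then 7.16 and 7.19. Promoters of 0.779% of all genes were specific to quiescent NSPCs, and those of 0.947% to activated NSPCs. Of 11 pump and cotransporter genes, 10 had a promoter peak in all 6 libraries and H3K4me3 in both states.

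**Figure D2:**
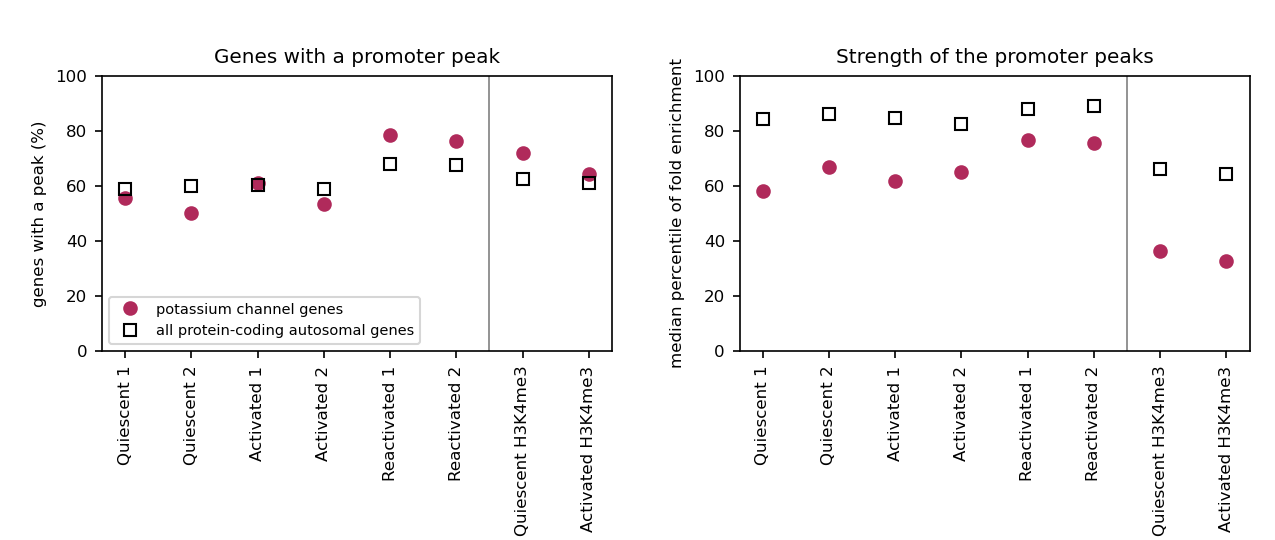
Percent of the 92 potassium channel genes and of all 20807 protein-coding autosomal genes with a promoter peak in each library, and the median percentile of those peaks within each list. The channel genes had a higher share than all genes in the reactivated libraries (78.3% and 76.1% beside 67.9% and 67.7%), which was not so with lists of equal length (56.5% beside 60.2%), and a lower median percentile in every library.

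Away from promoters, 198 sites in the windows of the channel genes had a peak in at least 2 of the quiescent and activated libraries, and 154 more had it in 1 and were left out. Sites were shared when each state had a peak in at least 1 library, and specific as for promoters. Of the 198, 139 were shared (70.2%, 63.3 to 76.5%, beside 67.2% of all such sites at protein-coding autosomal genes), 29 were specific to quiescent NSPCs (14.6%, 10.03 to 20.4%, beside 20.3%) and 30 to activated NSPCs (15.2%, 10.5 to 20.9%, beside 12.6%). The windows held 1.42 sites per 100 kb, beside 1.49 for all genes. Without a quiescent library the number specific to quiescent NSPCs was 79 (without replicate 1) or 74 (without replicate 2), and without activated replicate 1 it was 47. Without activated replicate 1 or 2 the number specific to activated NSPCs was 53 or 68. As at promoters, the rule is looser when a state is judged on its other library alone, so these numbers can rise by construction.

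As a share of each library's peaks away from promoters, peaks in the windows of channel genes were 0.694% and 0.610% in quiescent NSPCs, 0.672% and 0.726% in activated NSPCs and 0.770% and 0.736% in reactivated NSPCs. The quiescent and activated values overlapped, with means of 0.652 ± 0.0595% and 0.699 ± 0.0382% (SD, n = 2), and the difference of −0.0475 percentage points had p = 0.667 in a two-sided exact permutation test. The reactivated mean was 0.753 ± 0.0243% (SD, n = 2), higher than the activated mean by 0.0538 percentage points (exact permutation p = 0.333, the smallest that 2 against 2 libraries can give). This difference was −0.00337 percentage points at a −log10 q of at least 10 (exact permutation p = 1), 0.0140 with the peaks of a list joined first (exact permutation p = 1) and 0.0181 with windows of 5 kb (exact permutation p = 0.333).

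Sites were unevenly spread over the genes. There was at least 1 state-specific site at 39 of the 92 genes (beside 25.6% of all genes). A site specific to quiescent NSPCs was at 21 (beside 17.7%), one specific to activated NSPCs at 24 (beside 12.4%), and both kinds at 6 (beside 4.42%). The windows of channel genes were longer, with a median of 72.2 kb beside 57.6 kb, and these counts are not adjusted for length. Introns of any annotated gene, channel gene or not, held 21 of the 29 sites specific to quiescent (72.4%, beside 72.5% of such sites at all genes). They held 24 of the 30 specific to activated (80%, beside 68.3%) and 97 of the 139 shared sites (69.8%, beside 63.3%). Of these classes, 19, 19 and 93 sites overlapped the body of the channel gene with the nearest 5′ end. The median distance from the 5′ end of the gene was 37.5 kb, 50.5 kb and 47.6 kb for these classes. The inward rectifiers had 2.11 sites and the tandem-pore genes 2.13 sites per 100 kb, and the other families 1.22 to 1.29. *Kcnd3* had the most sites, 15, of which 12 were shared, followed by *Kcnip1* with 11, of which 7 were shared and 4 specific to activated NSPCs.

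**Figure D3:**
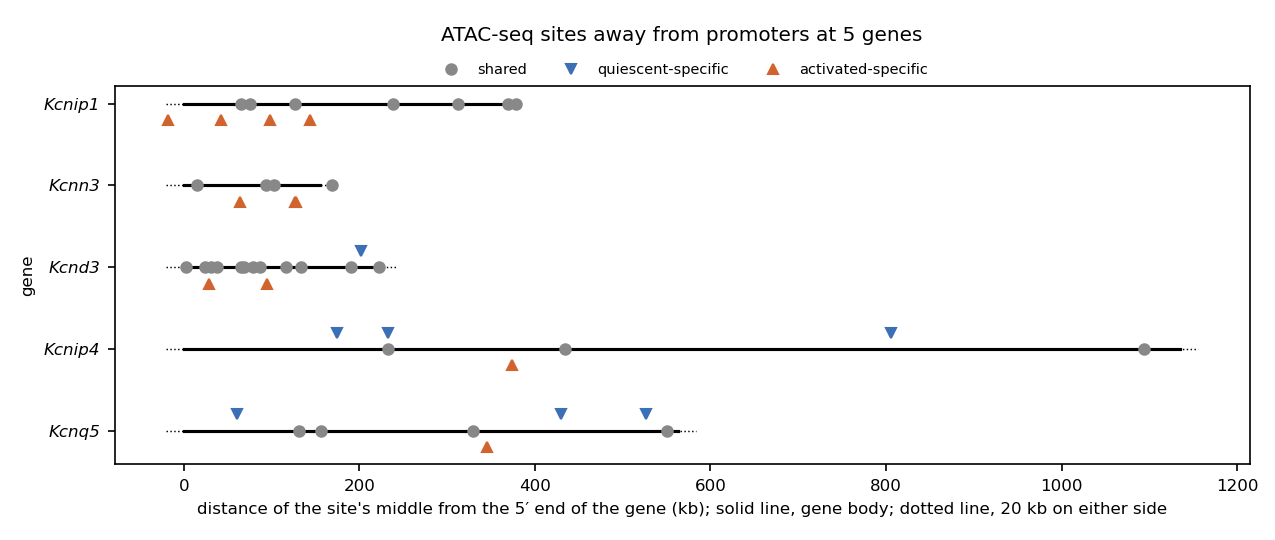
Position of accessible sites away from promoters along 5 potassium channel genes, as distance in kb from the 5′ end of each gene, with 1 mark per site drawn as a grey circle (shared), a blue triangle (quiescent-specific) or an orange triangle (activated-specific). Solid lines are gene bodies and dotted lines the 20 kb on either side. *Kcnip1* held 4 activated-specific sites and no quiescent-specific site, and *Kcnd3* held 15 sites, most of them shared.

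Sequences of 300 bases around the summit are shown for the sites on which the next results turn: 2 that were specific to quiescent NSPCs, 2 specific to activated NSPCs and 2 that were shared and differed in strength. They were read from GRCm38 (mm10) on the plus strand, 5′ to 3′, with the same motifs in capitals as in the promoters. They lie at chr14:23792794-23793093 and chr1:15296443-15296742 (introns of *Kcnma1* and *Kcnb2*), chr3:105546630-105546929 (an intron of *Kcnd3*), chr17:52601052-52601351 (upstream of *Kcnh8*), chr10:112378517-112378816 (an intron of *Kcnc2*) and chr3:105538869-105539168 (an intron of *Kcnd3*).
Kcnma1 quiescent-specific site: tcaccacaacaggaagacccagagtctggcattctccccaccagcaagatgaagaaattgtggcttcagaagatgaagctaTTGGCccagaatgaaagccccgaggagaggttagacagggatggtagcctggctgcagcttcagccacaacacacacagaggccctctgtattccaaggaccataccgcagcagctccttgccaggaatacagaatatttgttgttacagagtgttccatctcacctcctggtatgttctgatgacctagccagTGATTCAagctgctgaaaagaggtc
Kcnb2 quiescent-specific site: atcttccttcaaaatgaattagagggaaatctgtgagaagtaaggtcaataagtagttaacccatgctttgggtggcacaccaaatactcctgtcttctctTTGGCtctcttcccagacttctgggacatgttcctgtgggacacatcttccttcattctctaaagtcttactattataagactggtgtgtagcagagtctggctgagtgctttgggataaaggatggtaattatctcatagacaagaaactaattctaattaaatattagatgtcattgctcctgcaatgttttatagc
Kcnd3 activated-specific site: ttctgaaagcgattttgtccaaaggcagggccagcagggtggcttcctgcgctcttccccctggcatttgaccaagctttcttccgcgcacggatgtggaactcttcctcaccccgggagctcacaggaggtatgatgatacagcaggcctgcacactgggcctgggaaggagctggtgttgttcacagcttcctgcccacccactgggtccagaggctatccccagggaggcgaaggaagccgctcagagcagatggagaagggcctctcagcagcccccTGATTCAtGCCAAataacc
Kcnh8 activated-specific site: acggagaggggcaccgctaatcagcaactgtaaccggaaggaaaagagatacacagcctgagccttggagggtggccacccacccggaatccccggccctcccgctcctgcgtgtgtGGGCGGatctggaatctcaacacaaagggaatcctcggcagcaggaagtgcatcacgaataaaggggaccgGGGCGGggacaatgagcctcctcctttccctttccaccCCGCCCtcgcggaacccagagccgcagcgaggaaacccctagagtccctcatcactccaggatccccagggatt
Kcnc2 shared site: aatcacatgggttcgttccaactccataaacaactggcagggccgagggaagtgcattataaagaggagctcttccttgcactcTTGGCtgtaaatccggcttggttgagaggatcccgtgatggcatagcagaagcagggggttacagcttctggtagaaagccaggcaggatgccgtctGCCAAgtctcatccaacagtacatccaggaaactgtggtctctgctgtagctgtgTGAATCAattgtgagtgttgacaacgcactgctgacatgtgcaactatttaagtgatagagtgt
Kcnd3 shared site: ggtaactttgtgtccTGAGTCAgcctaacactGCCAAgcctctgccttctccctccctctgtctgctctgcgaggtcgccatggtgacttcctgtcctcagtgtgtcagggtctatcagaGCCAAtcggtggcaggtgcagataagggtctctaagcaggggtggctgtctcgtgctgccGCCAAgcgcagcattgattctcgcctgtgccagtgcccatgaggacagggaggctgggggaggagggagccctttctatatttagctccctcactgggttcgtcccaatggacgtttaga

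Among voltage-gated pore genes, 11 sites were specific to quiescent and 10 to activated NSPCs. In *Kcnb2*, the gene of the delayed rectifier Kv2.2, a site 9.45 kb into the gene at chr1:15296436-15296967 had a fold of 6.18 and 5.66 in the quiescent libraries and no peak in the other 4. In *Kcnq5*, a site 527 kb into the gene had 5.52 and 5.81 in quiescent, no peak in activated and 3.34 and 5.59 in reactivated libraries. The same gene held 2 more quiescent-specific sites and 1 activated-specific site.

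*Kcnd3* held the activated-specific site of the family with the highest mean percentile, 94.3 kb into the gene at chr3:105546408-105546951. Its fold was 8.21 and 7.86 in activated and 7.65 and 6.95 in reactivated libraries, with pileups of 62, 57, 82 and 62 reads and no peak in quiescent libraries. *Kcnh8* had such a site 1.57 kb upstream of its 5′ end, at chr17:52600922-52601358, with 6.37 and 5.28, then 10.6 and 8.27. Beside this site the promoter of *Kcnh8* was itself specific to activated NSPCs, so that both accessible sites next to this start were called in activated and reactivated libraries and in neither quiescent library.

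Among accessory subunits, 7 sites were specific to activated and 4 to quiescent NSPCs. *Kcnip1* held 4 of the 7. The strongest, 143 kb into the gene at chr11:33849667-33849948, had a fold of 6.02 and 5.22 in activated and 10.6 and 10.9 in reactivated libraries. Another, at chr11:33950892-33951435, lay in an intron of *Kcnip1* and 11.8 kb upstream of *Kcnmb1*, the gene of a BK channel β subunit, and had 5.84 and 4.91, then 7.07 and 6.65. It was the one state-specific site that lay in the windows of more than 1 channel gene.

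*Kcnip4*, which encodes another Kv4-binding protein, held 3 of the 4 quiescent-specific sites among accessory genes and 1 activated-specific site. The strongest, 232 kb into the gene at chr5:49292437-49292831, had a fold of 8.15 and 6.42 in quiescent, no peak in activated and 5.47 and 8.81 in reactivated libraries. It overlapped an H3K4me3 peak that was called in the quiescent library alone, with a fold of 3.21. Of its 300-base window 64.3% was repeat-masked, and among the 59 state-specific sites it was the only one with at least 50% masked. Another, 174 kb into the gene, had 4.60 and 4.97, then no peak, then 5.07 and 7.05.

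Among calcium- and sodium-activated genes, 5 sites were specific to quiescent and 7 to activated NSPCs. In *Kcnma1*, a site 222 kb into the gene at chr14:23792820-23793114 had a fold of 7.23 and 4.89 in quiescent, no peak in activated and 2.67 and 2.53 in reactivated libraries. In *Kcnmb2*, the gene of a BK channel β subunit, a site 165 kb into the gene at chr3:32067019-32067616 had 6.74 and 6.56 in activated and 10.2 and 12.9 in reactivated libraries. *Kcnn3*, the gene of the small-conductance channel SK3, held 3 activated-specific sites. One, 64.3 kb into the gene, had 4.51 and 6.06 in activated libraries and 4.26 in reactivated library 2, and no peak in reactivated library 1.

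The inward rectifiers had 4 sites specific to quiescent and 2 to activated NSPCs, and the tandem-pore genes 5 of each. All 6 sites counted for *Kcnj10* were shared. In its window, a site 8.97 kb from the 5′ end had a fold of 8.06 and 9.49 in the quiescent, 14.1 and 13.3 in the activated and 14.9 and 14.1 in the reactivated libraries. After scaling, the nearest quiescent and activated libraries differed 1.12 times, so the site was not stronger in activated NSPCs by the rule used for promoters. *Kcnj9* lies beside *Kcnj10* and shares part of this window. It had 5 shared sites and 1 specific to each state. *Kcnk13* had 5 shared and 2 quiescent-specific sites.

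**Figure D4:**
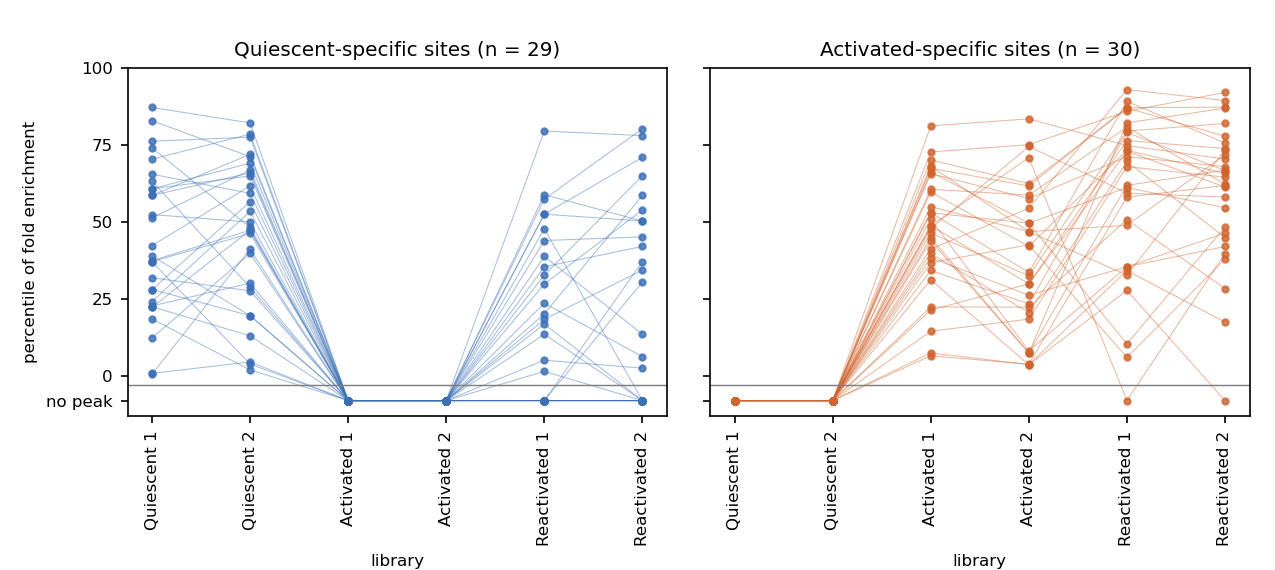
Percentile of fold enrichment within each library (vertical axis) at the 29 quiescent-specific and 30 activated-specific sites away from promoters, with a line joining the values of a site and points under the grey line for no peak. In reactivated NSPCs, 28 of the 30 activated-specific sites had a peak in both libraries, as did 14 of the 29 quiescent-specific sites.

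Reactivated NSPCs had peaks at nearly all of the activated-specific sites. Both reactivated libraries had a peak at 28 of the 30 (93.3%, 77.9 to 99.2%, beside 92.1% of activated-specific sites at all genes) and no site lacked one in both (0 of 30, which allows up to 11.6%, beside 1.87%). For quiescent-specific sites it was 14 of 29 (48.3%, 29.4 to 67.5%, beside 55.1%), and 9 had a peak in neither reactivated library (31.0%, 15.3 to 50.8%, beside 26.4%). Both shares of the channel genes lay near those of all genes. At activated-specific sites the median pileup was 34 and 29 reads in the activated libraries and 74 and 58 in the reactivated libraries, and at shared sites 41 and 33, then 63.5 and 62.5. With all ATAC-seq lists limited to the same number of peaks, the shares were 62.5% and 13.0%, and without activated replicate 1 the share of activated-specific sites was 75.5%.

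At 70 sites with a peak in all 4 quiescent and activated libraries, 5 were stronger in quiescent (7.14%, 2.36 to 15.9%, beside 5% of all such sites) and 4 in activated NSPCs (5.71%, 1.58 to 14.0%, beside 5.71%), by the same rule as for promoters. With fold as deposited these counts were 2 and 9, and with a ratio of at least 2 they were 0 and 0. The count stronger in quiescent NSPCs was 1 at a −log10 q of at least 10 and 3 with windows of 5 kb. In *Kcnc2*, the gene of the fast delayed rectifier Kv3.2, a site 107 kb into the gene at chr10:112378279-112378854 had a fold of 9.93 and 8.33 in quiescent libraries, 5.57 and 4.56 in activated libraries and 12.0 and 10.8 in reactivated libraries. The nearest scaled values differed 1.98 times. In *Kcnmb2*, a site 82.1 kb into the gene had 8.41 and 5.96, then 3.71 and 3.42, then 5.40 and 5.94, a ratio of 1.91. The other 3 lay 6.18 kb upstream of *Kcnk13* (ratio 1.81), in *Kcnh2*, the gene of the hERG channel (1.70), and 6.37 kb upstream of *Kcna6* (1.64).

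Of the 4 sites stronger in activated NSPCs, 2 were in *Kcnd3*. The site 86.6 kb into the gene, at chr3:105538573-105539216, had a fold of 5.23 and 5.43 in quiescent libraries, 13.2 and 10.6 in activated libraries and 14.3 and 11.2 in reactivated libraries, a ratio of 1.78. The site 37.5 kb into the gene had 4.76 and 3.67, then 11.2 and 8.45, then 14.2 and 14.4, a ratio of 1.74. The gene also held 2 activated-specific sites, at 94.3 kb and 29.2 kb, and 1 quiescent-specific site 201 kb into the gene with 2.76 and 3.13 in quiescent libraries, no peak in activated libraries and 3.20 in reactivated library 1 alone. The other 2 were downstream of *Kcnc1* (1.66) and in *Kcnab1*, the gene of a Kv1 β subunit (1.58). Leaving out activated replicate 2 gave 10 sites stronger in quiescent NSPCs, and leaving out quiescent replicate 1, quiescent replicate 2 or activated replicate 1 gave 9, 10 and 9 stronger in activated NSPCs.

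**Figure D5:**
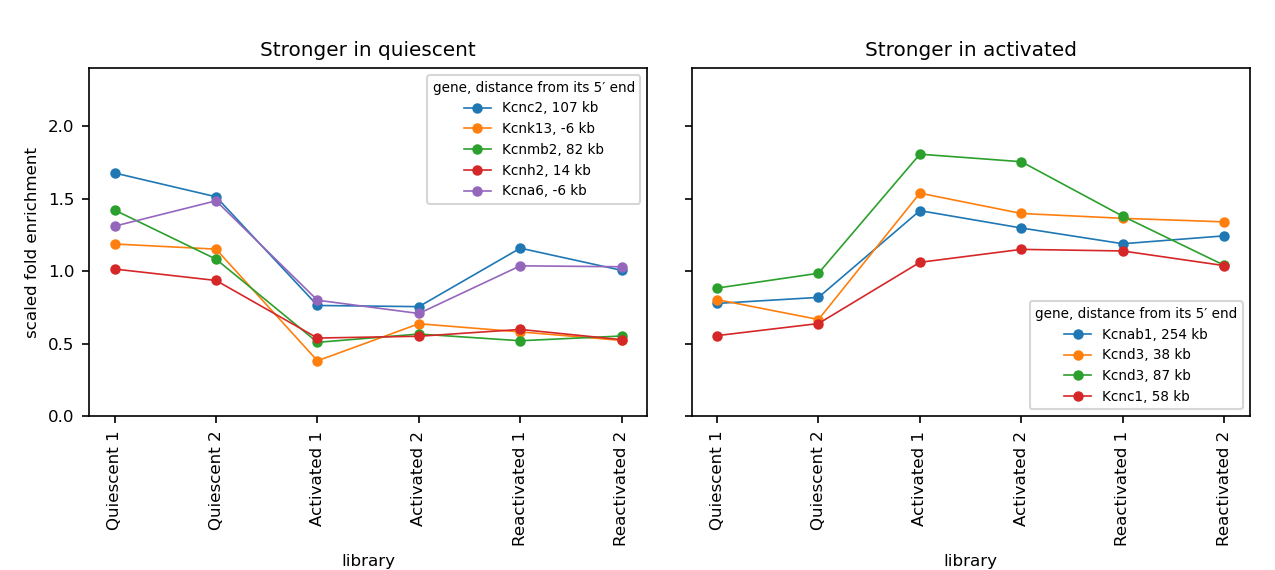
Fold enrichment divided by each library's median at sites open in all 4 quiescent and activated libraries, for the 5 sites stronger in quiescent and the 4 stronger in activated NSPCs, with 1 line per site. Quiescent and activated values did not overlap at any of these sites, which is what the rule required, with ratios of 1.58 to 1.98 between the nearest libraries.

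Motifs were compared with sites of the same class at all genes. In windows of 300 bases around the summit, the E-box CAGCTG was in 15 of 30 activated-specific sites (50%, beside 51.4% of 2519 such sites at all genes) and in 6 of 29 quiescent-specific sites (20.7%, beside 19.6% of 4073). The NFI core TTGGC was in 20 of the 29 quiescent-specific sites (69.0% beside 64.3%) and in 16 of the 30 activated-specific sites (53.3% beside 56.3%). The AP-1 site was in 10.3% of the quiescent-specific sites (beside 9.72%) and 20% of the activated-specific sites (beside 16.2%). A GC box was in 8 of the 30 activated-specific sites (26.7% beside 9.61%), among them the printed site upstream of *Kcnh8*, with 3 matches, in 3 of the 29 quiescent-specific sites (10.3% beside 4.30%) and in 10.1% of the shared sites (beside 11.2%). The RE1 core of REST (TCAGCAC followed by C, any 2 bases and GGACAG) was in 1 of the 29 quiescent-specific sites (3.45% beside 0.221%), an intergenic site in the window of *Kcnn4*, the gene of an intermediate-conductance calcium-activated channel. It was in none of the 30 activated-specific sites (0.0397% at all genes) and in 1 of the 139 shared sites (0.719% beside 0.208%), 6.04 kb upstream of *Kcnh2*. None of the 93 RefSeq promoter windows held it (0.0255% of all), but the accessible promoter site of the tandem-pore gene *Kcnk12*, 0.581 kb upstream of its 5′ end, did. A match is a match of letters and does not show that a factor is bound.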

How the data were processed

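ATAC-seq peaks of 6 libraries and H3K4me3 peaks of 2 libraries were analysed. The 2 input libraries were not analysed here. Per the methods of the study and the processing notes, the authors trimmed ATAC-seq reads with Trim Galore 0.4.0, aligned them to mm10 with Bowtie2 2.2.5, removed duplicates with Picard 1.88 and SAMtools 1.3.1, and called peaks in each library with MACS. Reads of reactivated samples were reduced by the authors before peak calling. H3K4me3 reads were called as broad peaks against input. The fold enrichment in the deposited lists is a ratio to the local background (for H3K4me3, the input), with no scaling across libraries by the authors. The −log10 of p and q in the deposited lists was computed per library and grows with depth, and the deposited score, not used, is 10 times the −log10 q. Summits were deposited as distances in bp from peak starts.

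The members, gene lists and named genes were chosen with earlier results of these data known. Genes were those of GENCODE M21. Peaks of the 4 quiescent and activated lists were merged where they overlapped or abutted. Pileups were recovered from fold and −log10 p, to within 0.02% of the latter. Named were genes with a state-specific promoter, the 10 with the most state-specific sites, those at the 5 strongest state-specific and the 5 most different shared sites of each state, those whose H3K4me3 call differed, up to 5 with one mark and not the other, the 5 strongest promoters and genes that share a state-specific site. Chosen after their values were seen were *Kcnj10*, *Kcnj16*, *Kcnk12*, *Kcnn4*, *Hcn2*, *Amigo1*, the genes without a promoter peak and those open in the reactivated state alone. Results of some single genes are not reported here, and their rows are left out of the plot of promoter peaks. Shares have exact (Clopper-Pearson) 95% intervals, and shares per library were compared by exact permutation. Promoter sequences were from RefSeq and site sequences from the GRCm38.p6 genome. Python 3.11.15, numpy 2.4.6, pandas 2.3.3, scipy 1.17.1, matplotlib 3.10.9 and samtools 1.23.1 were used. Site classes, calls of stronger sites, recovered pileups and motif matches were tested on simulated data. Alternatives tried were a −log10 q of at least 10, lists of equal length, each ATAC-seq library left out, a promoter of 2 kb, a window of 5 kb, the 5′ end of the gene alone, an overlap of 50%, unscaled fold, a ratio of 2, joined peaks and a replicate block.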

Additional observations from a re-analysis of the deposited data

How the results depend on the processing

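Of 175 values under alternatives, 129 stayed within the limit set for the same result, 45 moved and 1 reversed. With a −log10 q of at least 10, 20 promoters were open in all 6 libraries in place of 40, 1 shared site was stronger in quiescent NSPCs in place of 5, and the reactivated minus activated share of peaks was −0.00337 percentage points (exact permutation p = 1), the reverse of the main direction. With ATAC-seq lists of equal length, 13.0% of quiescent-specific and 62.5% of activated-specific sites were open in reactivated NSPCs, and counting a peak in at least 1 reactivated library gave 69.0% and 100%. With 5 kb in place of 20 kb, 3 shared sites were stronger in quiescent NSPCs. With fold as deposited, 2 were stronger in quiescent and 9 in activated NSPCs, and with a ratio of at least 2 there were 0 of each. Among the alternatives chosen after seeing the data, H3K4me3 in quiescent NSPCs alone was called at 4 promoters with a −log10 q of at least 10 and at 5 with lists of equal length, and the reactivated state alone had 18 and 2 promoters. Under the same settings 3 and 2 promoters were specific to quiescent and 2 and 5 to activated NSPCs. Promoter counts per library moved only at the stricter q, to 29 in quiescent library 1 and 33 and 29 in the activated libraries. Promoters stronger in activated NSPCs numbered 0 under each of those settings, 5 with fold as deposited and 1 with a ratio of at least 2. The cause was not tested, except that equal lists and a stricter q remove weak peaks by construction. Shares over all genes were not counted at the stricter q.

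Leaving out each ATAC-seq library in turn gave 40 to 43 promoters open in all the rest, 29 to 79 quiescent-specific and 30 to 68 activated-specific sites, 5 to 10 shared sites stronger in quiescent and 4 to 10 in activated NSPCs, 0 to 3 promoters stronger in quiescent and 2 to 5 in activated NSPCs, 9 to 11 promoters open in the reactivated state alone, and 0 to 4 promoters specific to quiescent and 3 to 7 to activated NSPCs. Leaving out a library loosens the rules, since the state is then judged on its other library alone, so these counts can rise by construction. The shares of specific sites open in reactivated NSPCs were 33.8 to 66.0% for quiescent and 75.5 to 96.7% for activated. The differences in share were −0.0895 to −0.00541 (quiescent minus activated) and 0.0267 to 0.0808 percentage points (reactivated minus activated).

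With the replicate number as a replicate block, these differences were −0.0475 (exact p = 1) and 0.0538 (exact p = 0.5, the smallest possible). The labels share numbers between states but name no common culture, so the numbers are not taken to pair the libraries. For young against old cells, the study used the replicate number as a block to model batch effects of library preparation. List lengths and the smallest called pileups limit what can be said: a site without a peak may still be open, and the exact permutation test of 2 against 2 libraries cannot go below 0.333.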
